A study of Mus musculus with 12 samples.

Results

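The dystrophin-glycoprotein complex genes were read in C2C12 cells, a mouse myoblast line that forms muscle fibre-like cells in low-serum medium. The 8 genes were Dmd, Utrn, Dag1, Sgca, Sgcb, Sgcd, Sgce and Sspn, and their probes were all those that the array annotation gives to exactly one of these symbols. They made up 20 of 45281 probes, and 8 of the 19057 genes with a named probe. Cells received siRNA against BRM (siBRM, target gene Smarca2), siRNA against BRG1 (siBRG1, target gene Smarca4) or the siRNA labelled siSCR, each at 100 nM with the DharmaFECT3 reagent. Smarca2 and Smarca4 encode the alternative ATPases of SWI/SNF chromatin remodelling complexes. After 48 h or 18 h in differentiation medium (RPMI with horse serum and ITS), total RNA was hybridised to Illumina mouse BeadChips. The 6 groups were siBRM, siBRG1 and siSCR at 48 h, and siBRM, siBRG1 and siSCR at 18 h, with 2 arrays each. All cells had been transfected, so no group was left untreated. C2C12 is a cell line in culture, and nothing in the labels tells whether replicates 1 and 2 came from different cultures. The p-values therefore rest on a spread between samples that may be technical.

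The complex joins the inside of a muscle fibre to the matrix around it. Dystrophin (Dmd), or its paralogue utrophin (Utrn), binds actin filaments and the membrane protein dystroglycan (Dag1), which binds laminin outside the cell. The sarcoglycans and sarcospan (Sspn) form a membrane subcomplex that holds dystroglycan and dystrophin together, and loss of several of these proteins causes muscular dystrophies in humans. Alpha-sarcoglycan (Sgca) is largely restricted to striated muscle, whereas its relative epsilon-sarcoglycan (Sgce) is found in many tissues.

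The results turn on 3 members, Sgca, Dag1 and Sgcb, whose brightest probes were detected on all 12 arrays. The 250 bases before their annotated starts are shown because these windows differ in letters that muscle and general transcription factors can bind. They come from RefSeq on GRCm38.p6, all on the minus strand, at chr11:94976328-94976577 for Sgca, chr9:108263959-108264208 for Dag1 and chr5:73647738-73647987 for Sgcb. Capitals mark the E-box CANNTG, the letters read by MyoD-family factors, and the GC box GGGCGG, the letters read by Sp factors, each searched on both strands.
Sgca: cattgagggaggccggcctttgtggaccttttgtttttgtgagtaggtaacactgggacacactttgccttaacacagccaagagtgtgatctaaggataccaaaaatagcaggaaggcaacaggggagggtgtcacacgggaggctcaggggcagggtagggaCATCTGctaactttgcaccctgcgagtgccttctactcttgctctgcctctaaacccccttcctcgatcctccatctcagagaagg
Dag1: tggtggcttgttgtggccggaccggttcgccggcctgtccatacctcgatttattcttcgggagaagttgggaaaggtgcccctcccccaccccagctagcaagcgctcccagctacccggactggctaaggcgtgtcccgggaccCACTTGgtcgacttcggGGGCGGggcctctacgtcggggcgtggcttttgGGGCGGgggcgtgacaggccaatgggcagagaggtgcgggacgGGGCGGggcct
Sgcb: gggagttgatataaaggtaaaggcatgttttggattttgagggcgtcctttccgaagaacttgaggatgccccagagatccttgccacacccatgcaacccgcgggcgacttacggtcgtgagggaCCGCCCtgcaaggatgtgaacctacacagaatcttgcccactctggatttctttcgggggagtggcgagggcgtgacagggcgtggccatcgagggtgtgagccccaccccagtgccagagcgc

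The Sgca window held 1 E-box and 0 GC boxes at 52.8% G and C. The Dag1 window held 1 E-box and 3 GC boxes at 67.6% G and C, and the Sgcb window 0 E-boxes and 1 GC box at 58.4%. Such letters are common: of 32851 promoter windows of the same length, 66.22% held an E-box and 32.74% a GC box. The MCAT motif CATTCC and the MEF2 motif were in none of these 3 windows, against 12.64% and 2.919% of all windows. RefSeq gives Dag1 a second start, whose overlapping window (chr9:108263816-108264065, 74.8% G and C) is not shown. The matches describe the letters and were not tested for binding.

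A probe was called detected on an array where the deposited detection p, set against that array's negative controls, was under 0.05. Levels are log2 normalized signals, and fold changes are set within a probe only, since probes differ in brightness for reasons other than abundance. Of the 20 probes, 5 were detected on all 12 arrays, 2 on 1 array and 8 on no array. Probes detected on at least 2 arrays were tested, which kept 10 probes of 6 members. Dmd and Sspn did not pass.

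**Figure D1:**
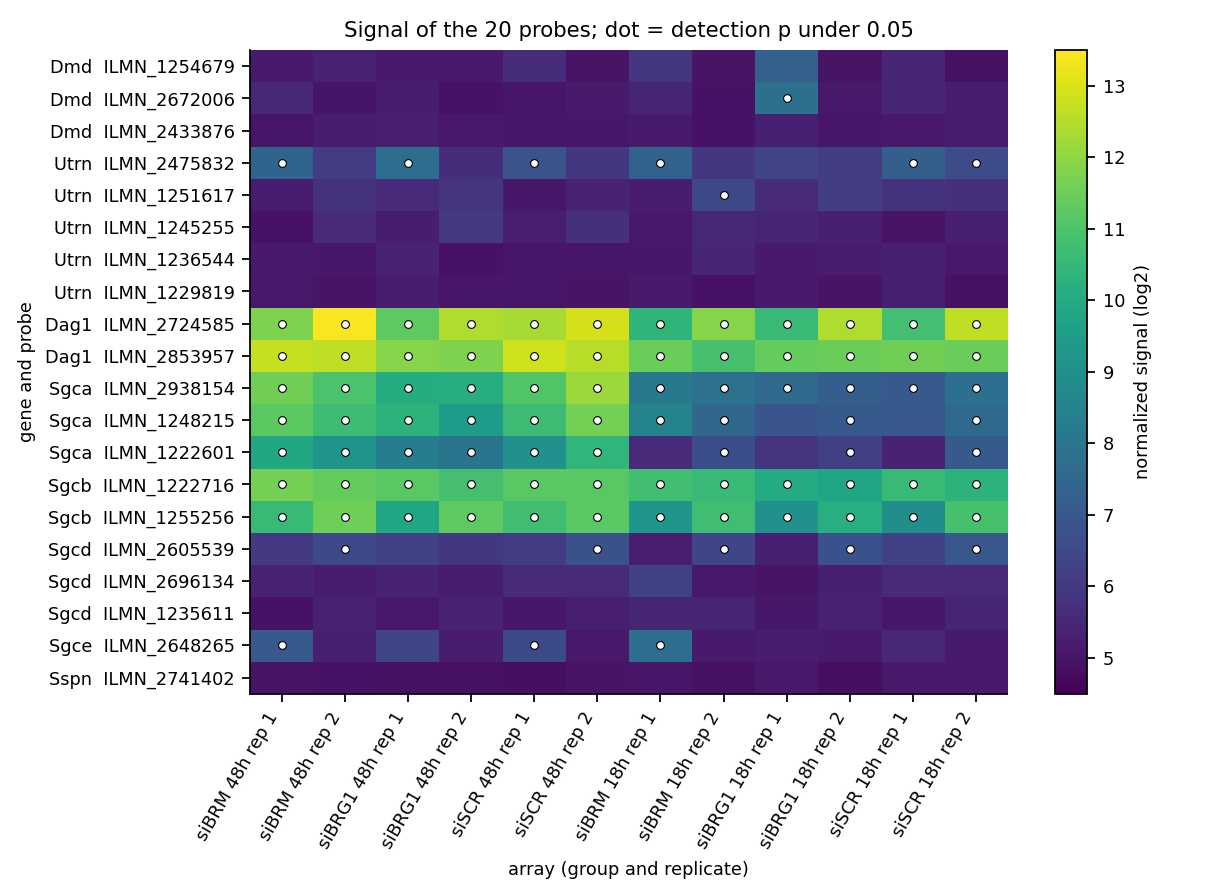
Log2 normalized signal (colour) of the 20 probes of the 8 genes (rows) on the 12 arrays (columns), with a dot where the detection p was under 0.05. Both Dag1 probes, both Sgcb probes and 1 Sgca probe were detected on all 12 arrays, and the Sspn probe on none.

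The label of the cells matched most of their skeletal muscle markers. Of 8 such markers with a named probe, 6 (Myod1, Des, Cdh15, Myog, Chrna1 and Acta1) were detected on both arrays of every 18 h group, and Ckm also was at 48 h. The remaining marker, Myf5, was detected on no array. Of 7 osteoblast and chondrocyte markers and 6 adipocyte markers, only Sox9 and Pparg were detected on both arrays of a group. Over the 12 arrays Sox9 read 11.80 to 14.11 (log2) and Pparg 7.19 to 9.30. The targeted genes were lower in the libraries labelled with their siRNA, but not past the threshold. Smarca2 was lower with siBRM than with siSCR by -0.59 at 48 h (-0.71 and -0.48 in the replicates) and -1.17 at 18 h (-0.71 and -1.63). Smarca4 was lower with siBRG1 by -1.94 at 48 h (-2.46 and -1.43) and -1.21 at 18 h (-1.37 and -1.05; all log2, siRNA minus siSCR, limma, adjusted p = 1 each). For Smarca4 at 48 h the adjusted p was 0.171 with BeadChip as a fixed block (limma). It was 0.194 with the replicate number as a block and 0.0956 with BeadChip as a random block. Smarca2 was higher with siBRG1 than with siSCR at 48 h by 0.76 (0.85 and 0.68). The arrays of replicate 1 at 48 h, of replicate 1 at 18 h and of replicate 2 at both times were on 3 BeadChips. Mean raw signal was 665 to 794, 513 to 546 and 1218 to 1644 on these 3 in that order. Time and BeadChip therefore cannot be told apart within replicate 1, while replicate 2 holds both times on one BeadChip, so the value of each replicate is given.

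Sgca, which encodes alpha-sarcoglycan, had the widest spread of group means of the 8 genes and was the only member called between the times, in siBRM and siSCR cells. Its brightest probe, ILMN_2938154, read 11.55 and 10.95 in siBRM cells at 48 h, 10.06 and 10.09 in siBRG1 cells, and 11.04 and 12.15 in siSCR cells. At 18 h it read 8.15 and 7.85 in siBRM cells, 7.59 and 7.22 in siBRG1 cells, and 7.01 and 7.78 in siSCR cells. Every 48 h array lay above every 18 h array, and the siBRG1 arrays were the lowest of the 48 h arrays. Group means ran in the order siSCR at 48 h (11.60 ± 0.78), siBRM at 48 h (11.25 ± 0.42), siBRG1 at 48 h (10.08 ± 0.02), siBRM at 18 h (8.0 ± 0.21), siBRG1 at 18 h (7.40 ± 0.27) and siSCR at 18 h (7.40 ± 0.54; SD, n = 2 each). The arrays of siSCR and siBRM at 48 h overlapped, as did those of siBRG1 and siSCR at 18 h. The summed linear signal of the skeletal muscle markers also differed between the times, at 120534 to 144762 (siBRM), 92975 to 95913 (siBRG1) and 130204 to 146655 (siSCR) at 48 h, and at 41405 to 52463, 32708 to 37762 and 48378 to 49815 for the same siRNAs at 18 h. Its part in the Sgca levels was not tested. A bulk level cannot tell a change in the number of fibre-forming cells from a change in RNA per cell.

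In siSCR cells Sgca was 18.4-fold higher at 48 h than at 18 h, a log2 difference of 4.20 ± 0.50 (SE, limma, adjusted p = 0.0210), with 4.03 in replicate 1 and 4.38 in replicate 2. In siBRM cells it was 9.53-fold higher, a log2 difference of 3.25 ± 0.50 (SE, adjusted p = 0.0384), with 3.4 and 3.11. In siBRG1 cells it was 6.38-fold higher, a log2 difference of 2.67 with a 95% interval of 1.54 to 3.81, which missed the threshold (adjusted p = 0.206). With the replicate number as a block the siBRG1 value passed (adjusted p = 0.0347), and with BeadChip as a random block it did too (adjusted p = 0.0175), but with BeadChip as a fixed block it did not (adjusted p = 0.109). Sgca was thus the only 1 of the 6 tested members called in siSCR cells, where 0.323% of 10847 genes were called, and in siBRM cells, where 0.461% were. In siBRG1 cells 0 members were called, against 0.101% of genes (limma, 364 genes at an unadjusted p under 0.05, of which 2 were members, Sgca and Sgcb). The shares of genes called were 0.867% with the replicate block and 1.1% with the random block, each with Sgca as the 1 member. Read from their brightest probes, Sgca and Sgcb were the members whose 48 h arrays all lay above the 18 h arrays, in each siRNA group, where 12.4% (siBRM), 12.3% (siBRG1) and 12.7% (siSCR) of genes did so. This depends on the probe: on the second Sgcb probe the times overlapped with each siRNA, and on the second Dag1 probe they did not.

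The siSCR call was lost under median scaling (adjusted p = 0.298) and when siSCR 48 h replicate 2 (0.237), siSCR 18 h replicate 1 (0.205), siSCR 18 h replicate 2 (0.131) or either siBRG1 48 h array (0.0618 each) was left out. The siBRM call was lost under median scaling (adjusted p = 0.858) and without any single array other than the 2 siSCR arrays of 48 h: without siBRM 48 h replicate 1 (0.461) or 2 (0.170), siBRM 18 h replicate 1 (0.187) or 2 (0.245), either siBRG1 48 h array (0.0838), either siBRG1 18 h array (0.0688) or either siSCR 18 h array (0.0592).

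The other probes of Sgca gave values of the same sign. ILMN_1248215 was higher at 48 h by 2.95 in siBRM cells (adjusted p = 0.0817), 2.92 in siBRG1 cells (0.206) and 3.89 in siSCR cells (0.0363; log2, limma). It was not detected on the replicate 1 arrays of siBRG1 and siSCR at 18 h, so these 2 differences rest in part on signal at background. With the replicate number as a block, ILMN_1248215 passed in siBRM (adjusted p = 0.0198) and siBRG1 cells (0.0399) too, but with BeadChip as a fixed block it passed in neither (0.0754 and 0.144). ILMN_1222601 was at background on the 3 arrays of replicate 1 at 18 h. In replicate 2, where it was detected at both times, it was higher at 48 h by 2.48 in siBRM cells, 1.78 in siBRG1 cells and 3.39 in siSCR cells. Over the 12 arrays, each taken minus the mean of its replicate number, the 3 probes correlated pairwise at Pearson r of 0.958 to 0.987, a description of probes that share the same arrays.

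**Figure D2:**
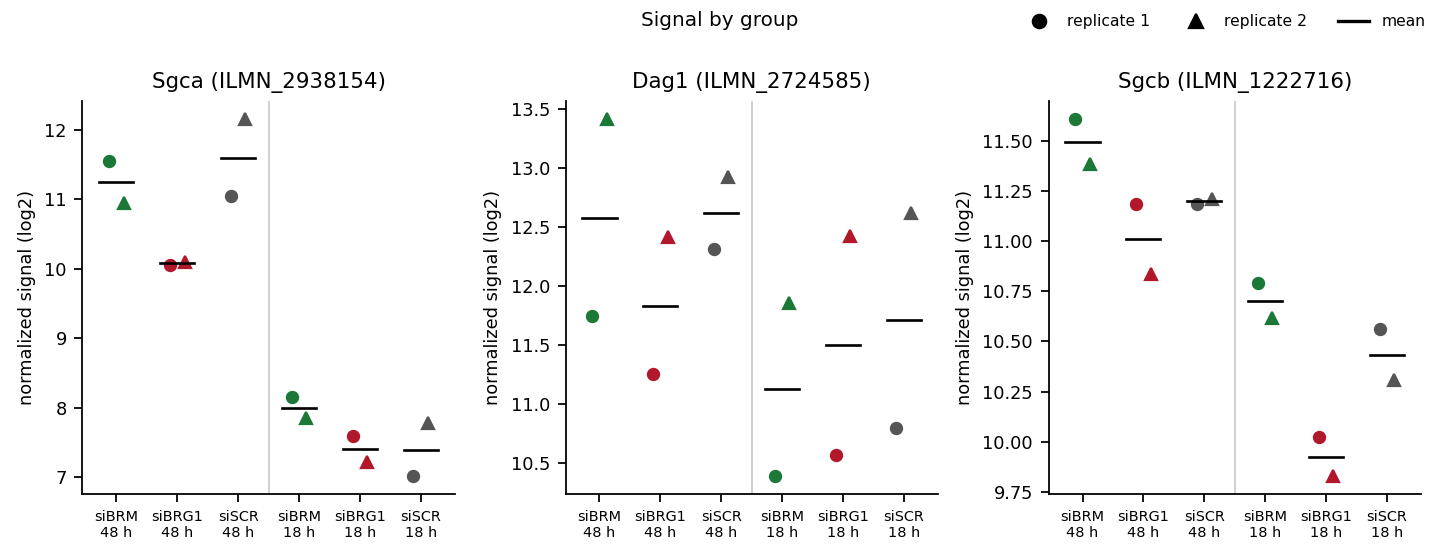
Log2 normalized signal of the brightest tested probe of Sgca, Dag1 and Sgcb on each array (circles, replicate 1; triangles, replicate 2; bars, group means). The axes start above 0 and differ between the 3 plots. Sgca and Sgcb arrays of 48 h lie above those of 18 h for each siRNA, whereas Dag1 replicates lie apart within every group.

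Sgcb encodes beta-sarcoglycan, a core subunit of the same subcomplex. Its brightest probe, ILMN_1222716, read 11.61 and 11.38 in siBRM cells at 48 h, 11.19 and 10.84 in siBRG1 cells, and 11.19 and 11.21 in siSCR cells. At 18 h it read 10.79 and 10.62 in siBRM cells, 10.02 and 9.83 in siBRG1 cells, and 10.56 and 10.31 in siSCR cells. On this probe the siBRM arrays were the highest at each time, and the siBRG1 arrays of 18 h were the lowest of all. In order, the group means were 11.50 ± 0.16 (siBRM, 48 h), 11.20 ± 0.02 (siSCR, 48 h), 11.01 ± 0.25 (siBRG1, 48 h), 10.70 ± 0.12 (siBRM, 18 h), 10.43 ± 0.18 (siSCR, 18 h) and 9.93 ± 0.14 (siBRG1, 18 h; SD, n = 2 each). Of these neighbours, only siSCR and siBRG1 at 48 h overlapped. The siBRM arrays of 18 h lay 0.04 below siBRG1 at 48 h and 0.06 above siSCR at 18 h. Of 10847 genes, 587 had siBRM wholly above siSCR at 48 h, and 534 had so at 18 h. At 18 h, 895 genes had siBRG1 wholly below siSCR.

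The time differences of Sgcb were 0.79 in siBRM cells, 1.09 in siBRG1 cells and 0.77 in siSCR cells (log2, 48 h minus 18 h), smaller than those of Sgca and none of them called (adjusted p = 1 each). Each was positive in both replicates, with 0.82 and 0.77 in siBRM cells, 1.16 and 1.01 in siBRG1 cells, and 0.63 and 0.91 in siSCR cells. The other probe, ILMN_1255256, gave 1.11, 0.96 and 1.04 for these 3 groups in the same order. On it the times overlapped with each siRNA. The lower 48 h array read 10.61 (siBRM), 9.83 (siBRG1) and 10.76 (siSCR), and the higher 18 h array 10.73, 10.13 and 10.88. Replicate 2 was the higher on this probe in every group, and its siBRM and siSCR arrays overlapped at both times.

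Dag1 encodes both subunits of dystroglycan, cut from a single precursor. Its probe ILMN_2724585, the brighter of 2, read 11.75 and 13.42 in siBRM cells at 48 h, 11.26 and 12.42 in siBRG1 cells, and 12.32 and 12.92 in siSCR cells. At 18 h it read 10.39 and 11.86 in siBRM cells, 10.57 and 12.43 in siBRG1 cells, and 10.80 and 12.63 in siSCR cells. Replicate 2 was the higher in every group, and all neighbouring groups in the order of levels overlapped. The second probe, ILMN_2853957, had no such gap: it read 12.70 and 12.63 in siBRM cells at 48 h, 11.86 and 11.76 in siBRG1 cells, and 12.84 and 12.52 in siSCR cells. At 18 h this probe read 11.46 and 10.87 in siBRM cells, 11.37 and 11.48 in siBRG1 cells, and 11.55 and 11.46 in siSCR cells. On it, every 48 h array lay above every 18 h array, and siBRG1 was the lowest group at 48 h.

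The 2 Dag1 probes gave time differences of 1.46 and 1.498 in siBRM cells, 0.34 and 0.38 in siBRG1 cells, and 0.91 and 1.17 in siSCR cells (log2, 48 h minus 18 h, ILMN_2724585 first). None was called without a block. The siBRM value of ILMN_2853957 had an adjusted p of 0.320 without a block, of 0.0243 with the replicate number as a block, of 0.0234 with BeadChip as a random block and of 0.0684 with BeadChip as a fixed block. The same probe in siBRG1 cells differed between the times by 0.49 in replicate 1 and 0.28 in replicate 2.

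The members at the dim end gave few measured values. Utrophin (Utrn) was tested through 1 of 5 probes, ILMN_2475832, which was detected on 6 arrays: replicate 1 of siBRM at 48 h (7.40), of siBRG1 at 48 h (7.75), of siSCR at 48 h (6.80) and of siBRM at 18 h (7.30), and both siSCR arrays of 18 h (7.22 and 6.59). Of these 6 detections, 5 were in replicate 1. At 18 h it was not well above background on either siBRG1 array, so that the siSCR mean was at least 1.11-fold higher. On each array the bound was the higher of the array's lowest detected signal and the probe's own, and it was averaged over the replicates. In replicate 1 the siBRG1 bound (7.36) lay above the siSCR value (7.22), so this fold rests on replicate 2. The means were 6.23 in siBRG1 cells and 6.90 in siSCR cells (limma, adjusted p = 1). Delta-sarcoglycan (Sgcd) was read by ILMN_2605539, detected in replicate 2 only, at 6.47 in siBRM and 6.75 in siSCR cells at 48 h, and at 6.37, 6.75 and 6.94 in siBRM, siBRG1 and siSCR cells at 18 h. Epsilon-sarcoglycan (Sgce) was detected in replicate 1 only, at 7.02 in siBRM and 6.52 in siSCR cells at 48 h and at 7.76 in siBRM cells at 18 h. Replicate number is bound to BeadChip here, and its part in these detections was not tested. Sarcospan (Sspn) had 1 probe, at 4.86 to 5.13 on the 12 arrays and detected on none, and the 3 dystrophin (Dmd) probes gave 1 detection among 36 probe and array pairs.

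The effect of each siRNA on these genes was asked at each time against siSCR, with siBRM and siBRG1 set against the same siSCR arrays. No member was called, and 0% of genes were called in each of the 4 comparisons (limma; 17 genes at an unadjusted p under 0.05 for siBRM and 218 for siBRG1 at 48 h, 34 and 128 at 18 h). With any of the 3 block terms 0 members were called too.

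Sgca was 2.87-fold lower in siBRG1 than in siSCR cells at 48 h, a log2 difference of -1.52 ± 0.50 (SE, 95% interval -2.65 to -0.39, adjusted p = 1), with -0.98 in replicate 1 and -2.06 in replicate 2. The 2 siBRG1 arrays lay below the 2 siSCR arrays, as was so for 10.5% of genes tested. Without a block it was the 1 member at an unadjusted p under 0.05 in this comparison (limma). With BeadChip or the replicate number as a fixed block 2 members were, Sgca and Dag1, beside 1150 and 999 of 10847 genes. The other Sgca probes gave -1.26 (ILMN_1248215) and -1.59 (ILMN_1222601). On the same arrays the summed muscle marker signal, given above, was lower with siBRG1 as well, with no overlap between the groups.

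With siBRM at 48 h, Sgca differed from siSCR by -0.35 (95% interval -1.48 to 0.79), with 0.51 in replicate 1 and -1.20 in replicate 2, so the replicates had opposite signs. Between the siRNAs, Sgca was higher in siBRM than in siBRG1 cells at 48 h by 1.17 (log2, 95% interval 0.04 to 2.31, adjusted p = 1), with 1.49 and 0.86. On their brightest probes, Sgca and Sgcb were the members whose siBRM arrays both lay above the siBRG1 arrays at 48 h, as 9.75% of genes did, and 0% of genes were called (limma, 205 genes at an unadjusted p under 0.05). On the second probes these groups overlapped for Sgcb and did not for Dag1.

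At 18 h Sgca differed from siSCR by 0.60 with siBRM (1.14 and 0.07 in the replicates) and by 0.01 with siBRG1 (0.58 and -0.56). The siBRG1 value at 18 h was negative with 2 of the 3 Sgca probes, with median scaling and in the authors' normalized values, so it has no settled sign. The change of the siBRG1 effect between the times, the test of whether the time difference itself differed from that in siSCR cells, was -1.53 ± 0.71 (SE), with -1.56 and -1.50 in the replicates (adjusted p = 1). For siBRM it was -0.95, with -0.63 and -1.27. In these 2 tests 0% of genes were called, with 22 genes at an unadjusted p under 0.05 for siBRM and 61 for siBRG1. A smaller rise of Sgca with siBRG1 was therefore not shown.

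Dag1 was lower with siBRG1 than with siSCR at 48 h by -0.78 on ILMN_2724585 (95% interval -2.85 to 1.28) and by -0.87 on ILMN_2853957, with negative values in both replicates of both probes (-1.06 and -0.51, and -0.98 and -0.76). Neither was called (adjusted p = 1 each). With siBRM at 48 h the differences from siSCR were -0.039 and -0.014 on these probes. The replicates had opposite signs on both, with -0.57 and 0.49 on ILMN_2724585 (95% interval -2.10 to 2.02) and -0.14 and 0.12 on ILMN_2853957. The siBRG1 difference of Sgcb from siSCR on ILMN_1222716 was -0.19 at 48 h. At 18 h it was -0.51 (-0.54 in replicate 1 and -0.48 in replicate 2). Between siBRM and siBRG1 cells at 18 h Sgcb differed by 0.78 on ILMN_1222716, with 0.77 and 0.79. In this comparison 0% of genes were called (limma, 147 genes at an unadjusted p under 0.05). On ILMN_1255256 the siBRG1 difference from siSCR was -0.42 at 48 h (-0.93 and 0.081) and -0.35 at 18 h (0.053 and -0.75). The replicates of ILMN_1255256 thus had opposite signs at both times. For siBRM against siBRG1 at 18 h this probe gave 0.36 (0.13 and 0.59).

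**Figure D3:**
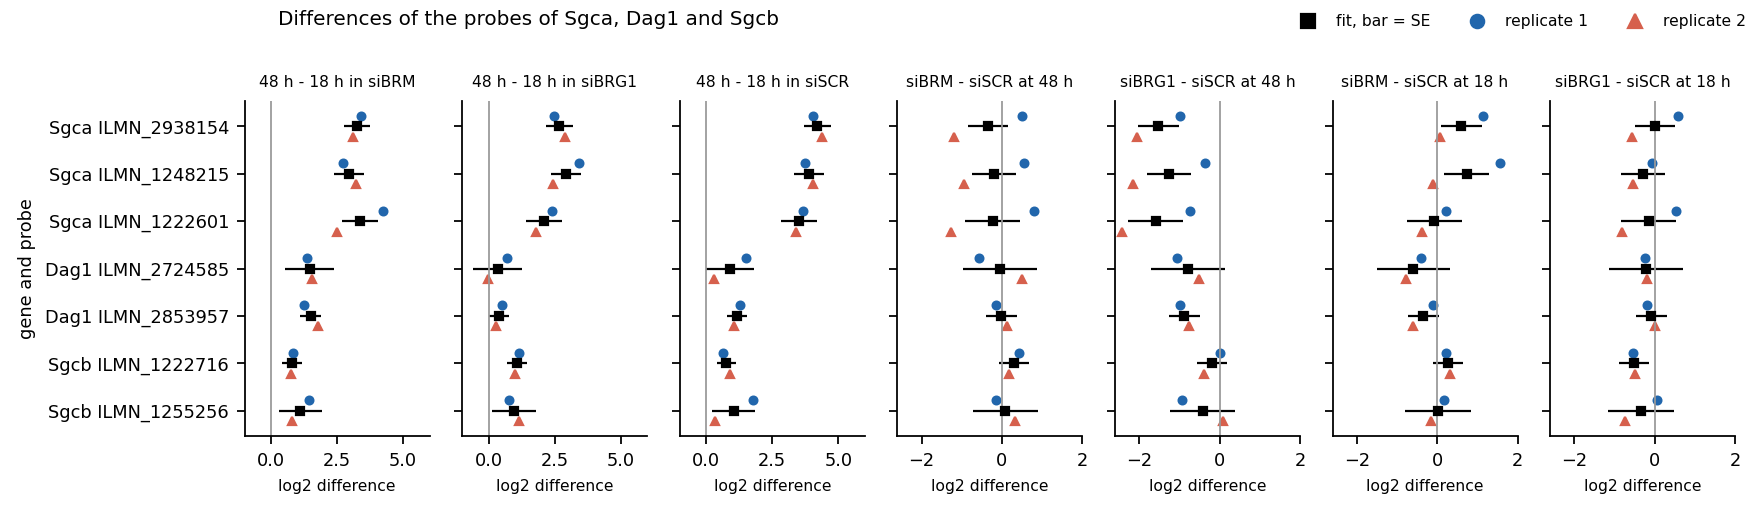
Log2 differences of each tested probe of Sgca, Dag1 and Sgcb in the 3 time comparisons and the 4 comparisons with siSCR (squares, fit with SE bars; circles, replicate 1; triangles, replicate 2). All 3 Sgca probes lie well above 0 in the time comparisons, and below 0 in both replicates for siBRG1 against siSCR at 48 h.

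Sgca, Dag1 and Sgcb were described together over the 12 arrays, each taken minus the mean of its replicate number. Sgca and Sgcb correlated at 0.893, Sgca and Dag1 at 0.765, and Dag1 and Sgcb at 0.655 (Pearson, across arrays that share time, siRNA and BeadChip). Among 8995 genes compared on the same measure, the 5 most like Sgca were Tmod1 (0.992), Dbndd1 (0.992), BC051019 (0.989), Aatk (0.988) and Myl6b (0.986). The compared genes were those detected on at least 6 arrays. These 5 were detected on 7, 8, 6, 6 and 7 of the 12 arrays, in that order. In siSCR cells at 18 h they averaged 5.27 to 6.30, so their correlations rest in part on signal near background. Tmod1 encodes tropomodulin, which caps the pointed ends of actin filaments, and Myl6b a myosin light chain. Tmod1 averaged 10.23 in siBRM cells, 8.48 in siBRG1 cells and 10.40 in siSCR cells at 48 h. The 5 most like Dag1 were Chd3 (0.956), Nudt7 (0.952), Cd164 (0.947), Pigh (0.946) and Col4a1 (0.942). Of these, Nudt7 was detected on only 7 arrays. Chd3 encodes a chromatin remodelling ATPase, and Col4a1 a basement membrane collagen.

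Other genes that work with the complex were read as lists. Of 10 cytoplasmic partners (syntrophins, dystrobrevins, Nos1, Cav3 and Plec) 7 were tested, of 9 laminin-type ligands 7, and of 18 enzymes and factors of dystroglycan glycosylation 13. No gene of these lists was called in either direction in any comparison without a block (limma, against the shares of all genes given above). The median log2 difference of siBRG1 from siSCR at 48 h was -0.86 over the partners, with 0 of 7 positive, -0.09 over the ligands and -0.29 over the glycosylation genes, beside 0.04 over all genes. Over all genes 46.4% had a negative difference. Of the 7 partners 5 were negative in both replicates, as were 24.1% of all genes. Nos1 and Dtnb had replicates of opposite sign. Cav3 and Sntb1 were at background on the siBRG1 array of replicate 1, and Nos1 on the siSCR and siBRG1 arrays of replicate 2. The partners' values thus rest in part on signal at background. The skeletal muscle markers had a median of -0.79 in the same comparison, with 0 of 7 positive, and their part in the partners' values was not tested. Between the times in siSCR cells the medians were 0.32, -0.27 and 0.05 for these 3 lists, beside -0.06 over all genes.

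Cav3, a muscle caveolin found at the sarcolemma, read 8.48 and 7.85 in siBRM cells at 48 h, 5.64 and 6.47 in siBRG1 cells, and 6.89 and 9.05 in siSCR cells. It was not well above background on any 18 h array, and it passed the filter through its 48 h arrays. Against 18 h its mean was at least 3.08-fold higher at 48 h in siBRM cells and at least 2.64-fold higher in siSCR cells. In siSCR cells of replicate 1 the 48 h value (6.89) lay below the 18 h bound (7.01), so the siSCR fold rests on replicate 2. The adjusted p of Cav3 was 0.185 in siBRM and 0.252 in siSCR cells without a block (limma). It was 0.0439 and 0.0476 with the replicate number as a block, and 0.0625 and 0.0642 with BeadChip as a fixed block. With the replicate block 2.5% (siBRM) and 2.65% (siSCR) of genes were called. With BeadChip as a random block Cav3 was called between the times in siBRM cells, and Cav3 and the dystrobrevin gene Dtna in siSCR cells, where 2.5% and 2.77% of genes were called. Dtna, named after its values were seen, read 9.78 and 10.66 at 48 h and 9.01 and 7.55 at 18 h in siSCR cells. At 48 h Cav3 was detected on 1 of the 2 siBRG1 arrays, that of replicate 2, where it was lower with siBRG1 than with siSCR by -2.58 (log2; limma over both replicates, adjusted p = 1). The syntrophin gene Sntb1 also passed the filter through 48 h arrays alone. By the same bound its mean was at least 1.34-fold higher at 48 h in siBRM and at least 1.45-fold higher in siSCR cells (limma, adjusted p = 1 and 0.909). In siSCR cells of replicate 1 its 48 h value (6.70) also lay below the 18 h bound (7.01). The syntrophin gene Sntb2, detected on all 12 arrays, read 7.88 and 7.84 in siBRM cells at 48 h, 6.78 and 7.52 in siBRG1 cells, and 8.13 and 7.90 in siSCR cells. At 18 h it read 9.16 and 8.36 in siBRM cells, 8.98 and 8.46 in siBRG1 cells, and 9.30 and 8.43 in siSCR cells. It was thus lower at 48 h in both replicates with each siRNA, with no call.

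Among the ligands, Lama2, the laminin chain of muscle basement membrane, read 6.84 and 8.93 in siBRM cells at 48 h, 5.78 and 7.73 in siBRG1 cells, and 7.91 and 8.83 in siSCR cells. It was not detected on the replicate 1 arrays of siBRG1 at 48 h and of every siRNA at 18 h. In replicate 2, where it was detected on all arrays, it was lower with siBRG1 than with siSCR by -1.11 and differed between the times in siSCR cells by 0.94. Of the glycosylation genes, Pomt2, a protein O-mannosyltransferase subunit that starts the sugar chain on dystroglycan, differed by 0.78 for siBRG1 against siSCR at 48 h (0.65 and 0.91). Dpm1, the catalytic subunit of dolichol-phosphate mannose synthase, differed by -0.53 there and was detected on 1 of the 2 siBRG1 arrays. Dpm3, which anchors that enzyme in the membrane, differed between the times by 0.48 in siBRM cells, 0.73 in siBRG1 cells and 0.55 in siSCR cells. None of these values was called (limma, adjusted p = 1 each).

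**Figure D4:**
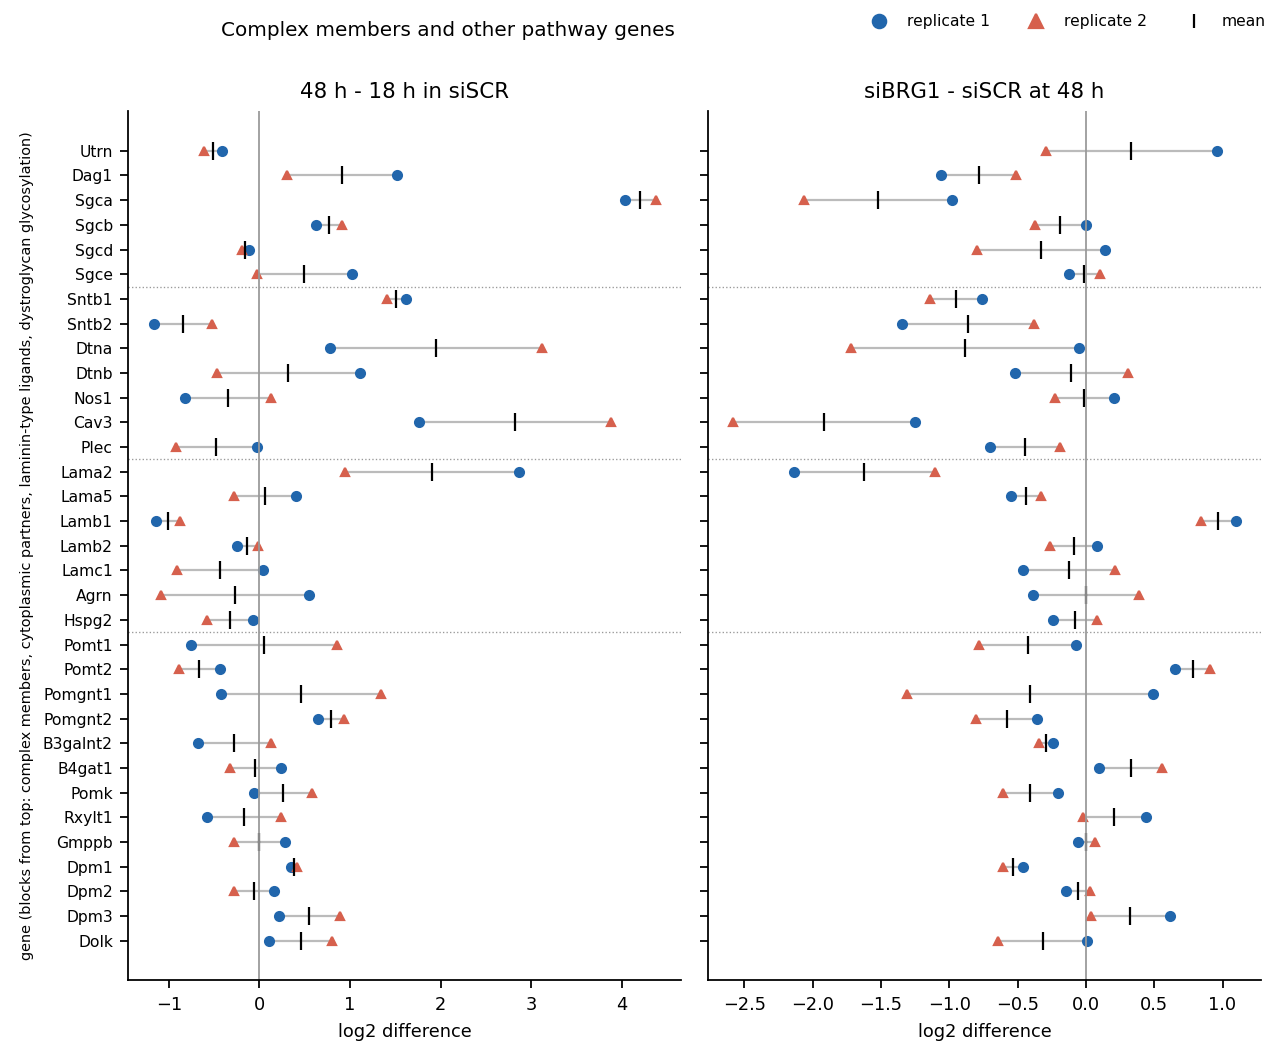
Log2 differences of the tested genes of the complex, its cytoplasmic partners, its laminin-type ligands and dystroglycan glycosylation between 48 h and 18 h in siSCR cells and between siBRG1 and siSCR at 48 h (circles, replicate 1; triangles, replicate 2; ticks, means). Sgca stands at 4.20 between the times, above the other genes shown, and all 7 partners have a mean below 0 for siBRG1 against siSCR. Of these partners, Cav3, Sntb1 and Nos1 were at background on some of the arrays compared.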

How the data were processed

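Total RNA of C2C12 cells was read on 12 Illumina mouse arrays, 2 in each of 6 groups taken from the labels. Raw bead intensity per probe and a detection p-value were deposited for each array, made with GenomeStudio 2009.1 per the submitters' processing notes, and the deposited table gives no normalization for them. Its other settings are not given in the sources read. A second deposited table holds the authors' normalized intensity values, which have nearly the same quantiles on every array and served as an alternative.

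The raw signals were background corrected from the detection p-values (limma 3.58.1, nec, offset 16, R 4.3.3), quantile normalized and put on the log2 scale. Of 45281 probes, 34885 had 1 symbol in the platform annotation, 18 several and 10378 were not listed. The 20415 probes with a detection p under 0.05 on at least 2 arrays were tested with lmFit and eBayes on 6 group means, with Benjamini-Hochberg adjustment over all of them, and called at an adjusted p under 0.05. They cover 10847 genes, each read from its brightest tested probe. There are 6 residual degrees of freedom, and the number of arrays limits the precision. The procedure was tested on simulated data with independent noise on each array. That test did not include the shared deviations of same-numbered samples described below, so it does not cover them. All 8 members are named. Of each list, a comparison names up to 3 called genes, or the 2 of smallest unadjusted p if there was no call. Of the genes most alike to Sgca and Dag1, 5 each are named. A further list is not reported here. The members and lists were chosen with earlier results of these data known.

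Replicate numbers come from the labels. Same-numbered samples deviated together from their group means (r of 0.449 to 0.825 over 15 pairs of groups, median 0.762), so they pair the samples. The main fit has no block, so these shared deviations stay in its spread and in the intervals given. The median residual variance over the tested probes was 0.441 without a block and 0.110 with BeadChip as a fixed block. Alternatives were block terms (replicate number, BeadChip fixed, BeadChip random with statmod 1.5.0), background, scaling, filters, other probes and each array left out.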

Additional observations from a re-analysis of the deposited data

Results flagged for a closer look

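In 2 probes that were too dim to be tested, 1 array stood above the siSCR arrays. The Dmd probe ILMN_2672006 was detected in siBRG1 cells at 18 h in replicate 1, at 7.84 (log2 normalized signal, 36 beads), against at most 5.45 on the siSCR arrays and 4.92 to 5.49 on the 11 other arrays. Its deposited detection p there was 0.0192. Its raw signal there was 273.8 (bead standard error 13.3), against 244.9 (11.8) on the siSCR array of the same replicate and time. The lowest detected level on that siBRG1 array was 7.36, so the value lies near background. This probe was not detected in replicate 2 of that group, and the Dmd probe ILMN_1254679 read 7.26 on the same array without being detected. The Utrn probe ILMN_1251617 was detected in siBRM cells at 18 h in replicate 2, at 6.44 (55 beads), against at most 5.81 on the siSCR arrays and 5.09 to 6.13 on the other arrays. Its deposited detection p there was 0.0160. Its raw signal there was 345.7 (bead standard error 17.9), against 272.2 (13.3) on the siSCR array of the same replicate and time. The lowest detected level on that siBRM array was 6.09, so this value too lies near background.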

How the results depend on the processing

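The 11 comparisons of Sgca, Dag1 and Sgcb and the named pathway genes were recomputed under 1976 alternative values, of which 1878 kept direction and side of the threshold, 56 changed sign, 12 came past the threshold and 30 fell short of it. The replicate block changed the count of called members once: between the times in siBRG1 cells it was 1 (Sgca) with replicate number fixed or BeadChip random. Between the times it also brought Cav3, Dag1 on ILMN_2853957 and the other Sgca probes past the threshold, and BeadChip random brought Dtna. With BeadChip fixed none of these newly passed, nor did Sgca in siBRG1 cells. Cav3 was at background on every 18 h array and passed the filter through its 48 h arrays. Its calls between the times therefore come from the arrays that selected it and add no support. The Sgca probe ILMN_1222601 was at background on the replicate 1 arrays of 18 h. No other member call changed under a block. Over all genes, the calls between the times without a block, with BeadChip fixed, with replicate number and with BeadChip random were 50, 163, 271 and 271 in siBRM cells, 11, 52, 94 and 119 in siBRG1 cells, and 35, 179, 287 and 300 in siSCR cells. With BeadChip random, 11 genes were called for siBRG1 against siSCR and 28 for siBRM against siBRG1 at 48 h, against 0 without a block. Median scaling left 0 members called in siBRM and siSCR cells, with Sgca at 3.39 (adjusted p = 0.858) and 4.495 (0.298) on the log2 scale; the cause was not tested. With an array left out, with or without BeadChip as a block, the count was 0 to 1 in both. Sgca held its call in 6 of 24 such fits in siBRM cells (log2 2.94 to 4.11) and in 17 of 24 in siSCR cells (3.35 to 5.01).

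Signs changed only for values not called. Sgca with siBRG1 against siSCR at 18 h was -0.0052 without background correction, -0.24 with median scaling, -0.0053 in the authors' values, -0.15 over the mean of probes, and -0.30 and -0.15 on the other probes. Sgcb was -0.046 with siBRM against siSCR at 48 h, and -0.43 for the change of that effect, under median scaling. The other probes, chosen after seeing the data, gave -0.072 for Sgca with siBRM at 18 h and -0.077 for Sgcb's change of the siBRG1 effect. With an array left out, Sgca ranged from -0.54 to 0.56 (siBRG1 against siSCR, 18 h) and from -1.04 to 0.35 (siBRM against siSCR, 48 h), and Sgcb's change of the siBRM effect from -0.13 to 0.18. Dag1 (ILMN_2724585) ranged from -1.50 to 0.32 and -1.14 to 0.71 (siBRM and siBRG1 against siSCR, 18 h), -0.87 to 0.80 (siBRM against siSCR, 48 h), -1.30 to 0.56 and -0.091 to 1.58 (siBRM against siBRG1, 18 h and 48 h). Between the times it ranged from -0.59 to 1.27 (siBRG1) and -0.0042 to 1.82 (siSCR), and its change of effect from -0.36 to 1.46 (siBRM) and -1.50 to 0.36 (siBRG1). Lamb2 ranged from -0.61 to 0.092 (siBRM) and -0.48 to 0.16 (siBRG1), Lama5 from -0.075 to 0.74 (siBRG1) and Dpm3 from -0.092 to 0.87 (siSCR). Signal near background limits Dmd, Utrn, Sgcd, Sgce and Sspn.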
